A study of Mus musculus with 4 samples.

Results

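A set of 9 mouse genes for enzymes and cofactors that write, copy or erase chromatin marks was followed through the second postnatal week of the retina: the DNA methyltransferase genes Dnmt1, Dnmt3a and Dnmt3b, the DNA dioxygenase genes Tet1, Tet2 and Tet3, Uhrf1, and the Polycomb methyltransferase genes Ezh1 and Ezh2. They were chosen by name, and all 9 were listed among the 22558 gene symbols of the series, each at 1 locus. The study compared retinas of mice lacking Fezf2, a zinc-finger transcription factor (genotype Fezf2KO, called KO here), with those of wildtype littermates (control) at P7 and P14 (days after birth), all on the C57/BL/6J background. It asked what Fezf2 does in retinal development, and 1 RNA sequencing library was made per genotype and age, 4 in all. For the knockout allele, the number of animals pooled per library and their sex, no statement was found in the sources used here. With 1 library per group, p-values measure only the spread among these libraries, part of which may be technical. In bulk retina, fewer cells of a type and less RNA per cell cannot be told apart.

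DNA methylation in mammals is set on unmethylated cytosines by DNMT3A and DNMT3B and copied to the new strand at replication by DNMT1, which UHRF1 brings to sites methylated on the old strand only. The TET enzymes oxidise methylated cytosine and so start its removal. EZH1 and EZH2 are the alternative catalytic subunits of Polycomb repressive complex 2 (PRC2), which methylates a lysine of histone H3 and keeps developmental genes silent; EZH2 is the form typical of dividing cells, and EZH1 is also made in cells that have left the cycle. In the mouse retina the last divisions end during early postnatal life, and rods, the most numerous cells, then build their outer segments.

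Promoter sequences are shown for the genes tied most closely to DNA replication and division and for Ezh1, the gene that went the other way with age. They are RefSeq sequences of the GRCm38.p6 build, 300 bases each, from 250 bases before the annotated start to 50 bases after it, and they were used only for letters, not for expression. Capitals mark matches, on either strand, to 4 words of the binding motif of E2F factors, the regulators of S-phase genes: TTTCCCGC, TTTCGCGC, TTTGCCGC and TTTGGCGC.
Dnmt1, chr9:20952574-20952873, minus strand: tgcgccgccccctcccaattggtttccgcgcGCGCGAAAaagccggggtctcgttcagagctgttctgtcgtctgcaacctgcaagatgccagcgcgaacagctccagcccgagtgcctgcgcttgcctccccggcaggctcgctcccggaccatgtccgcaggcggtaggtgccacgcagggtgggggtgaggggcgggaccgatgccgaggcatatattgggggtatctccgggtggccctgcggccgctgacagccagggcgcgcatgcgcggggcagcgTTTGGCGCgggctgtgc
Uhrf1, chr17:56304063-56304362, plus strand: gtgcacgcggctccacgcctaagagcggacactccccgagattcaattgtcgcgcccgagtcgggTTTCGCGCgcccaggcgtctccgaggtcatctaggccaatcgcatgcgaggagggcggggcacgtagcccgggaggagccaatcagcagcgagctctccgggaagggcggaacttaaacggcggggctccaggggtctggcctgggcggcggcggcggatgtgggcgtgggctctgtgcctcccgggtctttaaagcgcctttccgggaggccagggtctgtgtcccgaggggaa
Ezh2, chr6:47594981-47595280, minus strand: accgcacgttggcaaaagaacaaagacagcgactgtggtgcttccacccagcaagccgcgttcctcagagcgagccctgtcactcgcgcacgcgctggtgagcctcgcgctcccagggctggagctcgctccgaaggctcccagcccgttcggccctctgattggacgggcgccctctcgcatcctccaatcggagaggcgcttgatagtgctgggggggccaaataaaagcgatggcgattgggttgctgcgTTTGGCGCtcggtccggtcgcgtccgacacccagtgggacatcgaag
Ezh1, chr11:101226414-101226713, minus strand: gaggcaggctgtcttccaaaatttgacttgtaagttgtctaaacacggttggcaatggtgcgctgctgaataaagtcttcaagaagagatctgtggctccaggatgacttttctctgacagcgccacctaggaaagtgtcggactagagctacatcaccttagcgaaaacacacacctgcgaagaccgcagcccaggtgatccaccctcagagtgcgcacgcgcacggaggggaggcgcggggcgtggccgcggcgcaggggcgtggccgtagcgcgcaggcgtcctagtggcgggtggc

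The table held 14 promoters for the 9 genes. Of these, 3 had a match, 1 each of Dnmt1, Uhrf1 and Ezh2, where 2.26% of all 32851 promoters of the same length had a match. The promoters shown for these genes are the ones with a match. Every E2F word holds a CpG dinucleotide, and the 2.26% was not taken over promoters of like CpG content. In the Dnmt1 promoter shown, 1 of 3 for that gene, the first match began 219 bases before its own start and the second 33 bases after it. The other promoters of Dnmt1 had no match, and these positions do not hold for their starts. The Uhrf1 match began 185 bases before the start and the Ezh2 match 3 bases after it. TAATCC, the core word bound by the photoreceptor factor CRX, had 0 matches in the 14 promoters on either strand, and 7.06% of all promoters held it. No match overlapped another. CpG dinucleotides, the sites on which the DNMT and TET enzymes act, numbered 2 to 57 per promoter against a median of 7 over all promoters. Matches describe letters in this window and not binding.

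Levels are deposited FPKM, a fragment density corrected for the length of the transcript and the size of the library, which allows genes to be compared within a library. Each has a lower and an upper deposited bound taken from its own library, which do not cover variation between libraries. Fezf2 stood at 7.12% of its control level in the KO library at P7 and 3.14% at P14. The widths of the bounds implied about 9300000 to 12400000 fragments per library. All 10 rod marker genes passed 1 FPKM in all 4 libraries. The bounds spanned 2.19% to 10.5% of the level on each side at P7 for the 7 genes above 1 FPKM, and 3.41% to 20.2% at P14. Dnmt3b and Uhrf1 were under 1 FPKM in all 4 libraries, so they are described by level and left out of counts.

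Tet3 and Dnmt3a were the most abundant of the 9 at P7, at 55.1 and 45.6 FPKM in the control library, above 93.0% and 91.0% of detected genes. Dnmt1 followed at 14.6 FPKM. Ezh2, Ezh1 and Tet2, at 10.4, 10.4 and 9.07 FPKM, each overlapped the next in that order within their bounds. Tet1 stood below them at 5.29 FPKM, and Dnmt3b and Uhrf1 overlapped at 0.626 and 0.607 FPKM. At P14 the order in the control was Dnmt3a (32.2 FPKM), then Ezh1 (17.5) and Tet3 (15.6), which overlapped, then Dnmt1 (9.65), Tet2 (5.13), Tet1 (3.10), Ezh2 (2.28), Dnmt3b (0.447) and Uhrf1 (0.080). The KO library at P14 had the same order, with the bounds of Tet1 and Ezh2 overlapping as well. Tet3 thus lost its top place in both genotypes. Ezh2 went from a place above Tet2 and Tet1 to one below both in the control, while in the KO retina it was already at 7.09 FPKM beside Tet2 at 7.74 FPKM at P7, with overlapping bounds.

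**Figure D1:**
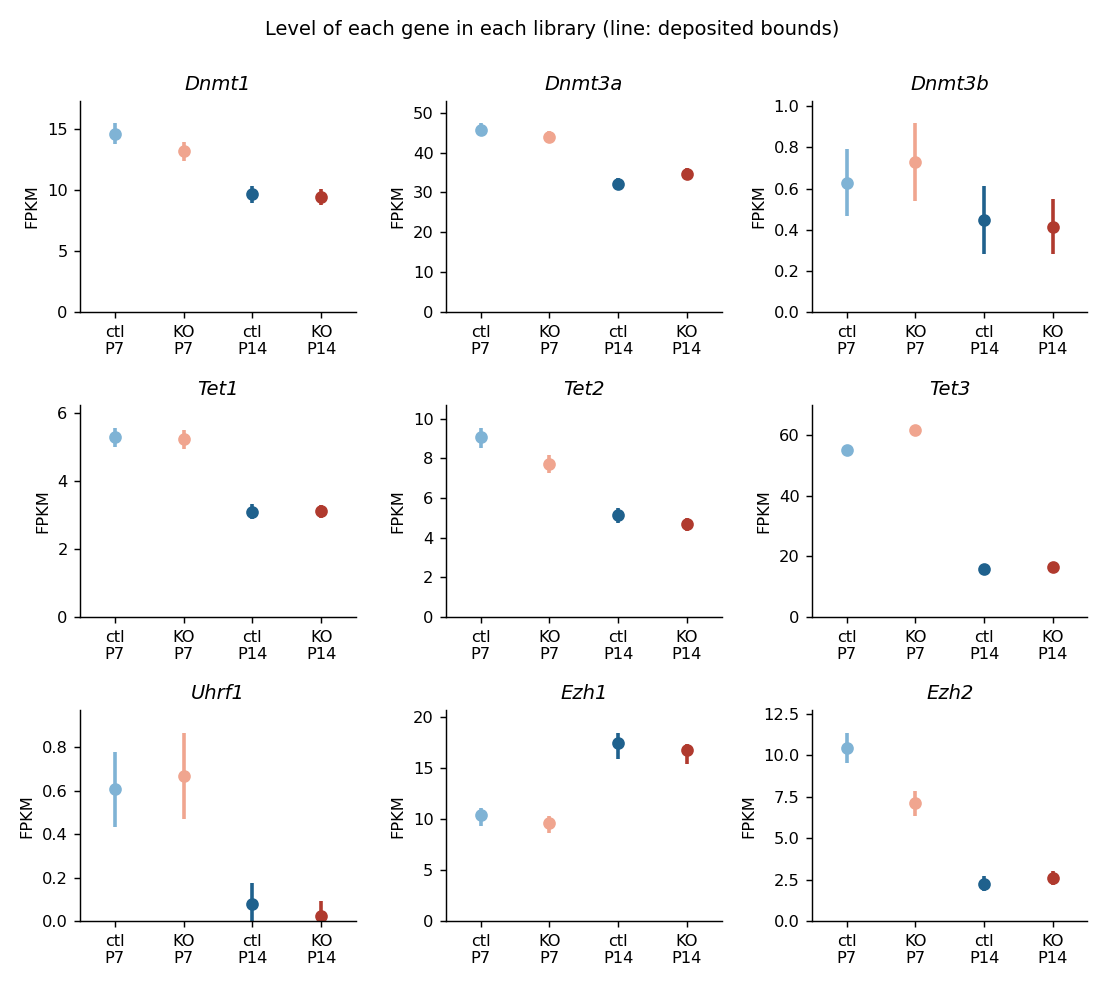
Level in FPKM (y axis, from 0) of each of the 9 genes in the control (ctl) and KO libraries at P7 and P14; points are the deposited FPKM and lines the deposited bounds, with 1 library per point. Tet3 and Ezh2 stand well above their P14 levels in both P7 libraries, Ezh1 is higher at P14 in both genotypes, and Dnmt3b and Uhrf1 stay under 1 FPKM.

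With age, Tet3 and Ezh2 showed the largest falls of the 7 genes above 1 FPKM, and Ezh1 was the gene that rose. Uhrf1, which was below that level, had a larger ratio between the ages, and with 0.1 FPKM added its difference was -1.97 in the control and -2.64 in the KO retina, beside -1.81 and -1.90 for Tet3 and -2.15 and -1.41 for Ezh2. Differences are given as log2(FPKM + 1) at P14 minus P7, and a gene was called when it was at least 1.5-fold apart on this scale with bounds that did not overlap. Of the 7 genes above 1 FPKM, 4 were called lower at P14 in the control (Tet1, Tet2, Tet3, Ezh2) and 1 higher (Ezh1), where 20.5% of 13112 genes were called lower and 16% higher. The same 5 genes were called in the KO libraries, where 21.4% of 13044 genes were called lower and 17% higher. By bounds alone 6 of the 7 were lower and 1 higher in both genotypes, where 37.7% and 27.6% of genes were so in the control and 39.4% and 29% in the KO retina. The median difference of the 7 was -0.62 in the control and -0.60 in the KO retina, beside -0.08 and -0.09 over all genes. With median-of-ratios scaling Tet1 was no longer called in either genotype, nor Tet2 in the KO retina, which left 2 called lower there. These comparisons have 1 library on each side and so carry no test.

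A limma fit over the 4 libraries, with age and genotype as additive terms, gave the test of age that the design allows. It takes the difference between the genotypes' age changes as its spread, with 1 residual degree of freedom and 10.9 borrowed from other genes. By it, 6 of the 7 genes fell and 1 rose at a Benjamini-Hochberg adjusted p below 0.05. Age moved most genes by this measure, since 40.6% of 12934 genes were called lower and 30.7% higher, and 73.6% had an unadjusted p below 0.05.

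Dnmt1, the maintenance methyltransferase on chromosome 9 (mm9 bases 20711650 to 20764332), measured 14.6 and 13.2 FPKM in control and KO retinas at P7, and 9.65 and 9.43 FPKM at P14. Both P7 libraries lay above both P14 libraries with no overlap of bounds. The age difference was -0.55 in the control and -0.44 in the KO retina, short of 1.5-fold on this scale in both. The control level at P7 was 1.51 times that at P14, and with 0.1 FPKM added Dnmt1 was called lower there, at -0.59. The limma age term was -0.50 ± 0.0956 (SE, adjusted p = 0.000533). UHRF1 recruits this enzyme, and Uhrf1 (chromosome 17, 56442760 to 56462909) was at 0.607 and 0.670 FPKM at P7 in the control and KO libraries. At P14 it was at 0.080 and 0.0237 FPKM with lower bounds of 0, so it was near the limit of detection at this depth. The P7 bounds (0.432 to 0.781 and 0.471 to 0.868) lay above the upper bounds at P14 (0.176 and 0.0920).

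Dnmt3a, the main de novo methyltransferase gene here (chromosome 12, 3806980 to 3914443), measured 45.6 and 43.8 FPKM in control and KO retinas at P7, and 32.2 and 34.7 FPKM at P14. It was lower at P14 in both genotypes with bounds apart, by -0.49 and -0.33, and the limma age term was -0.41 ± 0.0814 (SE; adjusted p = 0.000687). Dnmt3b (chromosome 2, 153475190 to 153513466) was at 0.626 and 0.729 FPKM at P7 and at 0.447 and 0.416 FPKM at P14, and the bounds of the ages overlapped in both genotypes. Per length, Dnmt3a was 3.12 times as abundant as Dnmt1 in the control at P7 and 3.33 times at P14. The corresponding ratios in the KO libraries were 3.32 and 3.68, and the ranges allowed by the bounds overlapped for all 4 libraries. Dnmt3b held 0.935% to 1.26% of their summed level in each library.

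Tet3 lies on chromosome 6 (83312368 to 83391672). Its P7 levels were 55.1 (control) and 61.6 FPKM (KO), and its P14 levels were 15.6 and 16.4 FPKM. The P7 levels were 3.52 times the P14 level in the control and 3.75 times in the KO retina, and the limma age term was -1.80 ± 0.0814 (SE; adjusted p = 3.75e-09). On the log2(FPKM + 1) scale the differences were -1.75 and -1.84, and 0.923% and 0.897% of genes had a difference as low or lower. Tet2, which has no DNA-binding CXXC domain of its own (chromosome 3, 133126641 to 133207354), was at 9.07 and 7.74 FPKM at P7 and at 5.13 and 4.69 FPKM at P14 in the control and KO libraries. Tet1 (chromosome 10, 62267318 to 62342762) was at 5.29 and 5.24 FPKM at P7 and at 3.10 and 3.11 FPKM at P14. Their limma age terms were -0.67 ± 0.104 and -0.61 ± 0.108 (SE; adjusted p = 0.000102 and 0.000287).

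Together the TET genes summed to 69.4 and 74.5 FPKM in control and KO retinas at P7, and to 23.9 and 24.2 FPKM at P14. Tet3 made up 79.3% and 82.6% of that sum at P7 and 65.5% and 67.8% at P14, and the ranges allowed by the bounds did not overlap between the ages. Relative to Dnmt3a, the other abundant gene, Tet3 was 1.21 times as high in the control at P7 and 0.486 times at P14. In the KO libraries these ratios were 1.41 and 0.473. Tet3 was therefore the more abundant at P7 and Dnmt3a at P14, in both genotypes.

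The Polycomb methyltransferase genes moved in opposite directions. Ezh2 (chromosome 6, 47480273 to 47545029) measured 10.4 and 7.09 FPKM in control and KO retinas at P7, and 2.28 and 2.61 FPKM at P14. Ezh1 (chromosome 11, 101052429 to 101087764) was at 10.4 and 9.61 FPKM at P7 and at 17.5 and 16.8 FPKM at P14. The bounds separated the ages in both genotypes for each gene. The limma age term was -1.48 ± 0.142 for Ezh2 and 0.72 ± 0.0924 for Ezh1 (SE; adjusted p = 1.75e-06 and 2.05e-05). Their summed level was 20.8 and 16.7 FPKM at P7 and 19.8 and 19.4 FPKM at P14 in the control and KO retinas. Its bounds parted between the genotypes at P7 (18.9 to 22.5 and 15.0 to 18.2 FPKM) and overlapped between the ages within each genotype. For this sum the lower bounds were added and the upper bounds were added, which gives a wide range. An overlap therefore does not show that the sum was equal at both ages. Ezh2 held 50.2% of the sum in the control at P7 and 11.5% at P14, with ranges by the bounds of 46.2% to 54.8% and 8.95% to 14.7%. In the KO libraries it held 42.5% (38.0% to 47.5%) and 13.5% (11.2% to 16.5%).

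**Figure D2:**
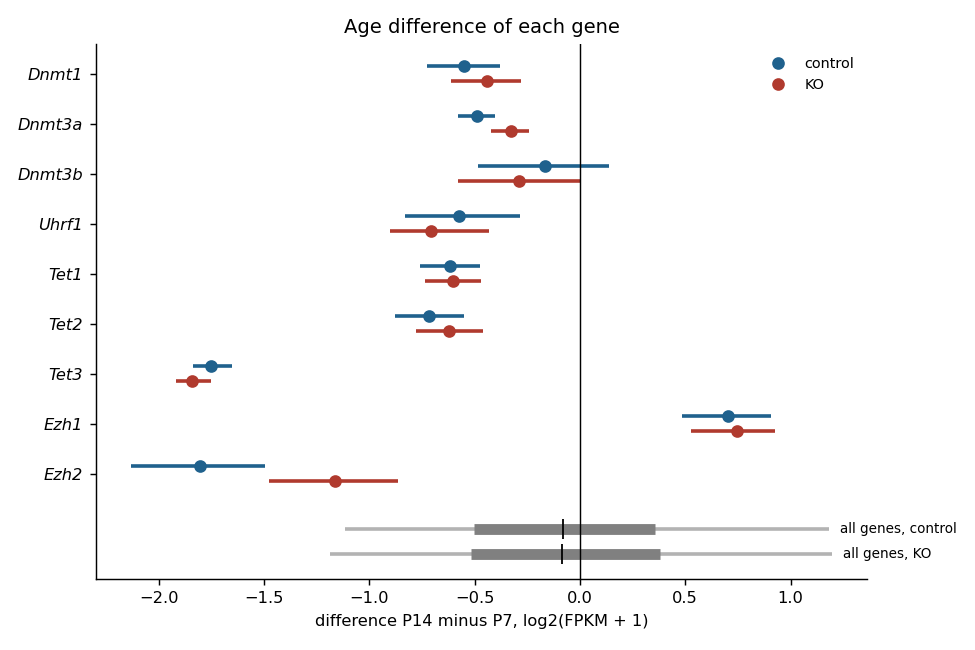
Difference between P14 and P7 in log2(FPKM + 1) (x axis) for each gene in control and KO retinas; points are the difference, lines the lowest and highest difference the deposited bounds allow. Grey bars show all genes tested, with the median, the middle 50% (thick) and percentiles 5 to 95 (thin); Tet3 in both genotypes and Ezh2 in the control lie below percentile 5, and Ezh1 is the gene to the right of 0.

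**Figure D3:**
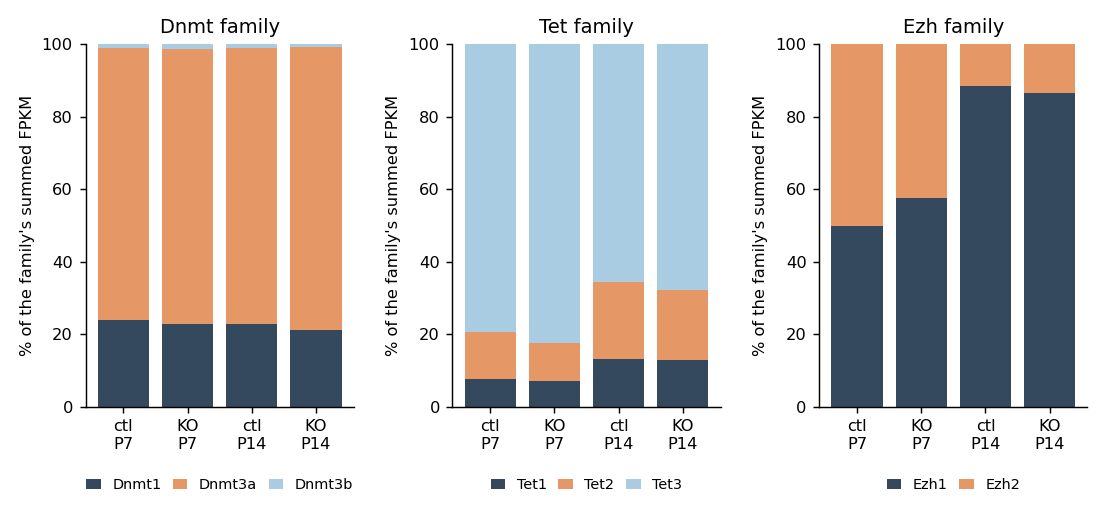
Share of each gene in its family's summed FPKM (y axis, percent) in the 4 libraries, as stacked bars. The Ezh2 share falls from 50.2% to 11.5% in the control and from 42.5% to 13.5% in the KO retina, while the shares of the Dnmt genes stay close to each other across libraries.

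Cell type markers moved with age in the same libraries, and their part in these differences was not tested. Over all genes 20.5% were called lower and 16% higher in the control, and 21.4% and 17% in the KO retina. Of 25 proliferation genes, 18 were above 1 FPKM in the control comparison, with 12 called lower and 0 higher, and the summed level of the list went from 116 to 85.8 FPKM (115 to 91.4 in the KO retina, with 10 of 17 called lower). Among them Mcm7 and Mcm2, which encode parts of the replicative helicase, went from 16.8 to 5.13 FPKM and from 5.98 to 2.08 FPKM in the control. Pcna, the replication clamp gene and the largest part of the summed level, rose from 46.2 to 55.9 FPKM in the control and from 44.9 to 60.7 FPKM in the KO retina. The median level of the 25 genes went from 1.64 to 0.578 FPKM in the control and from 1.67 to 0.579 FPKM in the KO retina. Mki67 was at 0 in the KO library at P14 and Aurkb in the control library at P14. Of the 8 progenitor and neurogenic genes, all 5 measured in the control and all 6 measured in the KO retina were called lower, and the Notch target gene Hes5 went from 18.2 to 4.06 FPKM in the control. Of 10 rod genes 9 were called higher and 1, Nr2e3, lower in both genotypes (531 to 242 FPKM in the control, 518 to 261 FPKM in the KO retina). The summed level of the 10 went from 6016 to 21164 FPKM in the control and from 6182 to 22473 FPKM in the KO retina. Of 8 Mueller glia genes 5 were called higher and 1 lower in the control and 4 higher and 0 lower in the KO retina. Microglial genes were called lower in 4 of 8 and 5 of 7 cases, with 0 higher. Erythroid genes were called higher in 5 of 5 cases in the control, and in the KO retina 1 of 5 was higher and 1 lower. Lens genes went in opposite directions, with 2 of 2 called higher in the control and 3 of 3 lower in the KO retina. Endothelial genes had 2 of 8 higher and 2 lower in the control and 2 higher and 3 lower in the KO retina, and pigment epithelium genes 3 of 8 higher and 1 lower and 2 higher and 3 lower.

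Genes whose course over the 4 libraries was closest to each member were found by the Euclidean distance between mean-centred log2(FPKM + 1) values, among 11459 other genes at a mean of 2 FPKM or more. These distances rest on 4 values per gene and are a description. Afap1, Tead2 and Hn1 were closest to Tet3 (distances 0.0088, 0.031 and 0.057), with Tead2 at 10.9 and 12.2 FPKM in control and KO retinas at P7, and 2.46 and 2.73 FPKM at P14. Among the 3 closest were Tbc1d23, Usp19 and Jmjd4 for Dnmt1, Coq6 and Ambra1 for Dnmt3a, Helz, Ercc3 and Cnot4 for Tet1, Prpf4b, Rimklb and Zfp811 for Tet2, and Snx25, Tmem14a and Raver2 for Ezh1, all within 0.042. Ezh2 had no neighbour as near: D330012F22Rik, Pcdhga2 and Cd276 were closest, at 0.25 to 0.26. Among the 9 genes themselves, Dnmt1 and Dnmt3a lay 0.14 apart and Ezh1 and Ezh2 2.23 apart.

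Of the partners and readers of DNA methylation, 11 of 15 were above 1 FPKM, and by the limma age term 4 rose and 6 fell, where 30.7% and 40.6% of all genes did. Zfp57, a gene for a zinc-finger protein that keeps methylation at imprinted sites, went from 7.48 to 1.69 FPKM in the control and from 6.28 to 1.32 FPKM in the KO retina (age term -1.65, adjusted p = 8.44e-08). Mbd2, a methyl-CpG binding gene, went the other way, from 16.8 to 27.7 FPKM and from 16.8 to 28.3 FPKM, as did Zbtb4, at 14.6 to 27.1 FPKM and 12.7 to 30.4 FPKM. Dppa3 was at 0 in all 4 libraries and Dnmt3l, the cofactor of de novo methylation in germ cells, at 0 in both P7 libraries.

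Of 18 genes for demethylation and base excision repair, 17 were fitted, and 7 rose and 8 fell with age, beside the same 30.7% and 40.6% of all genes. Tdg, the glycosylase gene that removes the oxidised bases made by TET enzymes, went from 8.16 to 2.69 FPKM in the control and from 8.35 to 2.29 FPKM in the KO retina. Apex1, for the endonuclease that acts after it, went from 27.9 to 5.73 FPKM and from 31.7 to 7.10 FPKM (age term -2.06, adjusted p = 3.38e-09). Neil2, for another glycosylase, rose from 0.672 to 2.72 FPKM and from 0.485 to 1.97 FPKM, and the stress gene Gadd45b from 1.19 to 3.95 FPKM and from 1.13 to 5.56 FPKM.

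Among the other PRC2 subunits 9 of 10 were above 1 FPKM, and 5 fell and 1 rose by the age term (40.6% and 30.7% of all genes). Jarid2, an accessory subunit that helps recruit the complex, went from 47.0 to 13.7 FPKM in the control and from 42.7 to 13.7 FPKM in the KO retina (age term -1.64, adjusted p = 1.20e-08). The core subunit gene Eed went from 14.3 to 10.1 FPKM and from 14.4 to 9.98 FPKM. Phf1, an accessory subunit gene, rose from 10.6 to 18.3 FPKM and from 10.3 to 19.1 FPKM. Suz12, the core subunit that both EZH proteins need, went from 31.9 to 32.6 FPKM in the control and from 32.4 to 31.0 FPKM in the KO retina (age term -0.02, adjusted p = 0.871); it falls outside the rule for named genes and was chosen after its values were seen.

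All 20 genes of Polycomb repressive complex 1 (PRC1) were measured, and 13 fell and 2 rose (40.6% and 30.7% of all genes). Cbx2, a subunit that reads the PRC2 mark, went from 6.47 to 0.919 FPKM in the control and from 5.87 to 1.05 FPKM in the KO retina, and Kdm2b, which binds CpG islands, from 17.2 to 5.78 FPKM and from 18.4 to 5.48 FPKM. Cbx6, of the same subunit family as Cbx2, rose from 29.2 to 61.4 FPKM and from 26.8 to 70.4 FPKM. Of the 8 genes for removal of Polycomb marks, 7 fell and 0 rose, beside the same shares. Kdm6b, the demethylase of the mark that EZH proteins set, went from 36.5 to 10.5 FPKM and from 36.5 to 11.8 FPKM, and Asxl3, a cofactor of the deubiquitinase of the PRC1 mark, from 3.80 to 0.552 FPKM and from 4.10 to 0.584 FPKM. The median differences of the lists in the control were -0.47 for methylation partners and readers, -0.25 for demethylation and repair, -0.37 for PRC2, -0.44 for PRC1 and -0.82 for removal of Polycomb marks.

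**Figure D4:**
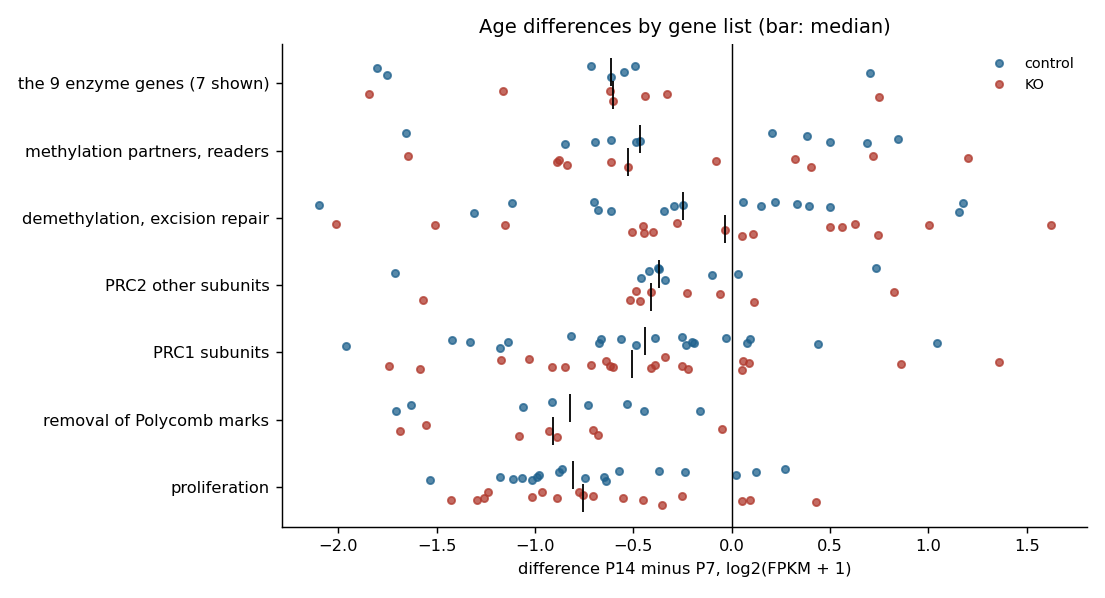
Difference between P14 and P7 in log2(FPKM + 1) (x axis) of each gene at 1 FPKM or more, by list, in control and KO retinas; black bars are medians and vertical scatter within a list has no meaning. Each list holds genes on both sides of 0 except that for removal of Polycomb marks, where all 8 genes lie below it.

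Between the genotypes, none of the 7 genes above 1 FPKM was 1.5-fold apart at either age. Uhrf1, under that level, was at 0.0237 against 0.080 FPKM at P14 with overlapping bounds, a difference of -0.08 with 1 FPKM added and -0.54 with 0.1 FPKM added. At P7, 0 of the 7 genes above 1 FPKM were called in either direction, where 0.474% of 12665 genes were called lower and 0.324% higher. By bounds alone Ezh2 and Tet2 were lower and Tet3 was higher in the KO library, where 6.1% and 7.34% of genes were lower and higher in this way. At P14, 0 of 7 were called, with 0.843% of 12804 genes called lower and 0.32% higher, and by bounds alone Dnmt3a was higher (7.45% of genes higher, 8.24% lower). The limma genotype term, which averages both ages, called 0 of the 7 fitted members, with 0 at an unadjusted p below 0.05 and a lowest adjusted p of 0.707 (Tet2). A difference present at a single age enters this term only in part and adds to its spread, so the term cannot exclude one. For Ezh2 it was -0.18 ± 0.142 (SE). Over the whole table the genotype term called 0 genes (0%) higher and 0.24% of genes lower, and 9.14% had an unadjusted p below 0.05.

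On the log2(FPKM + 1) scale Ezh2 had the largest genotype difference of the 9. Its P7 level was 7.09 FPKM without Fezf2 (bounds 6.35 to 7.84) against 10.4 FPKM with it (9.54 to 11.4), 67.9% of the control level and a log2 difference of -0.50. A larger difference in either direction was found for 1.55% of genes. Its P14 level was 2.61 FPKM without Fezf2 (2.18 to 3.03) against 2.28 FPKM with it (1.82 to 2.74), with overlapping bounds and a difference of 0.14. The age difference of Ezh2 was accordingly -1.80 in the control and -1.16 in the KO retina, a gap of 0.64, and 1.58% of 12910 genes had a larger gap. The gap uses all 4 libraries and has no spread left to test it against. On this scale it was 0.163 or less in size for the other 8 genes. With 0.1 FPKM added, the low gene Uhrf1 had age differences of -1.97 (control) and -2.64 (KO), beside -2.15 and -1.41 for Ezh2. The genotype difference of Uhrf1 at P14 was then -0.54, beside -0.55 for Ezh2 at P7.

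Among the pathway genes at P7, Mtf2, another PRC2 subunit gene, was at 5.17 against 6.98 FPKM (KO against control) and Jarid2 at 42.7 against 47.0 FPKM, both with bounds apart. The other 7 measured PRC2 genes overlapped. Higher in the KO library with bounds apart were Yaf2, Rnf2 and Rybp of PRC1, at 41.3 against 35.4, 38.7 against 34.4 and 27.0 against 24.0 FPKM. So were the reader gene Zbtb38 (11.9 against 10.2 FPKM) and the CXXC-domain gene Cxxc5 (102 against 88.1 FPKM). Also lower with bounds apart were Pcgf2 of PRC1 (16.6 against 20.2 FPKM), the repair gene Lig3 (8.04 against 10.2 FPKM) and the reader gene Zbtb4 (12.7 against 14.6 FPKM). By bounds alone 3 of 20 PRC1 genes were higher and 2 lower, where 7.34% and 6.1% of all genes were. Rnf2, Rybp, Pcgf2 and Lig3 fall outside the rule for named genes and were chosen after their values were seen. Cbx7, a PRC1 subunit gene, was at 5.55 against 9.61 FPKM, and Ogt, for the sugar transferase that binds TET proteins, at 9.55 against 15.8 FPKM; both were called lower at P7. Neither was called at P14, where Cbx7 was at 10.9 against 9.40 FPKM with overlapping bounds and Ogt at 14.6 against 17.6 FPKM with bounds apart. The limma genotype term had a Benjamini-Hochberg adjusted p of 0.157 for Ogt and 0.697 for Cbx7. Of the 18 measured proliferation genes 0 were called at P7. The list summed to 115 against 116 FPKM, of which Pcna was the largest part at 44.9 against 46.2 FPKM. The median level of the list was 1.67 against 1.64 FPKM. Ccna2 and Rrm2, S-phase genes of that list, were lower in the KO library with bounds apart, at 2.11 against 2.99 FPKM and 0.965 against 1.72 FPKM; they are named because they were the 2 such genes.

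For Tet3 the P7 bounds were 59.6 to 62.3 FPKM in KO and 53.3 to 55.8 FPKM in control retina, and the P14 bounds overlapped. For Tet2 they were 7.27 to 8.19 FPKM against 8.55 to 9.54 FPKM, and the P14 bounds overlapped as well. The P7 differences were 0.16 for Tet3 and -0.20 for Tet2, and 28.1% and 18.1% of genes had a larger one in either direction. Dnmt3a at P14 had a lower bound of 33.6 FPKM in KO retina and an upper bound of 33.5 FPKM in control retina, and the bounds overlapped when each library was rescaled to the same sum. For Dnmt1, Tet1, Ezh1, Dnmt3b and Uhrf1 the bounds of the genotypes overlapped at both ages, though those of Dnmt1 at P7 parted, lower in KO retina, under that rescaling. For Tet1 the interval allowed by the bounds was -0.14 to 0.12 at P7 and -0.14 to 0.15 at P14.

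Markers of neighbouring tissue also differed between the genotypes, and their part in these values was not tested. At P7 all 3 measured lens genes were called higher in the KO library (list sum 8.21 against 1.55 FPKM, with Crygs at 0 in the control), 1 of 5 erythroid genes was called higher (Hba-a2, whose reads may be split with its near-identical copy Hba-a1; list sum 339 against 291 FPKM) and 0 of 7 pigment epithelium genes were called (108 against 94.8 FPKM). At P14 both measured lens genes (0.933 against 8.25 FPKM, with Cryba1 and Crygs at 0 in the KO), all 5 measured erythroid genes (356 against 1180 FPKM) and 4 of 8 pigment epithelium genes (109 against 156 FPKM) were called lower in the KO library. Endothelial and microglial genes had 0 of 8 called at each age. Over all genes 0.474% were called lower and 0.324% higher at P7, and 0.843% and 0.32% at P14.

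**Figure D5:**
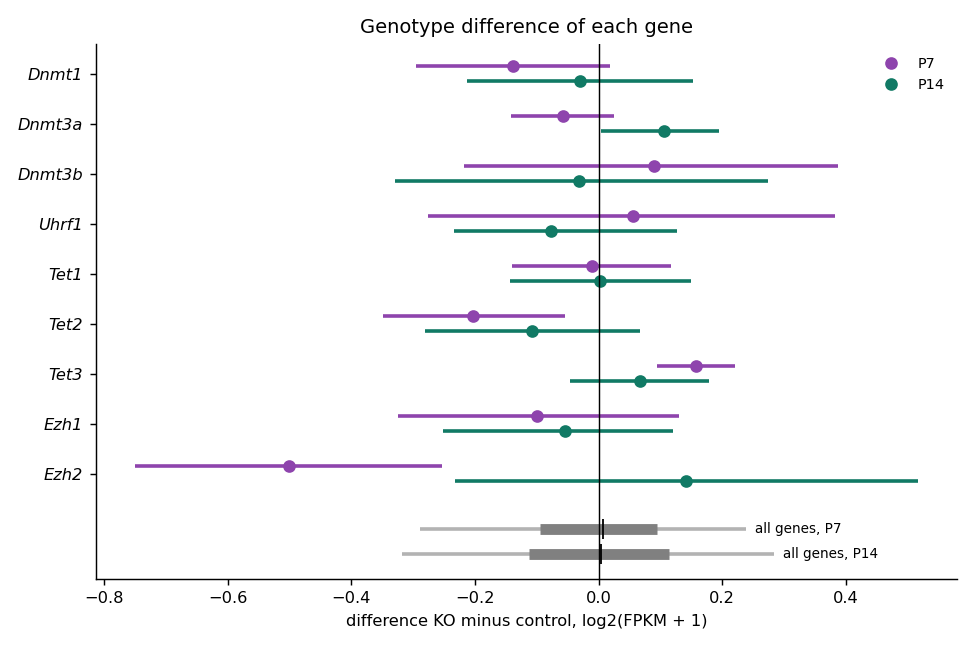
Difference between KO and control in log2(FPKM + 1) (x axis) for each gene at P7 and P14; points are the difference, lines the lowest and highest difference the deposited bounds allow, and grey bars all genes tested (median, middle 50% and percentiles 5 to 95). Ezh2 at P7, at -0.50, is the point outside the grey bar of its age, and most other lines cross 0.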

How the data were processed

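Retinal RNA of 4 libraries, 1 per genotype and age, was read as 36-base single ends from random-primed cDNA, per the labels' protocols; no strand marking is named there, and 0 other listed genes overlapped the loci of the 9 members. The authors deposited FPKM with a lower and an upper bound per gene, and Cufflinks 2.1.1, TopHat2 2.0.8b, CASAVA 1.8.2 and the mm9 build are named, in the submitters' processing notes; the annotation is not stated in those notes. The deposited FPKM is not a count, and depth was only implied by the bounds, read as lying 2 SD of a Poisson count from the level. At 1809 to 2243 loci per library the deposited level lay above its own upper bound; this held for no member, but it did for Pcna, Mbd2, Hes5 and Cxxc5 in at least 1 library, and shares of genes with bounds apart rest on the bounds as deposited.

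Rows of a symbol were summed, 16 symbols with a failed level were left out, and 740 small RNAs and loci under 300 bases were kept out of tests and background. Differences are in log2(FPKM + 1), a scale that shrinks differences of low genes. Genes entered a comparison at 1 FPKM or more in either library, and the limma 3.58.1 fit when 2 or more libraries reached that floor. The fit used R 4.3.3 and a trended prior variance, with p-values adjusted by Benjamini-Hochberg. It was tested on simulated data with 50 genes changed at each of 1.5-, 2-, 3- and 4-fold. The median share of false calls was 11.8% for age and 11.9% for genotype, above the nominal level, so adjusted p-values here may be too small. The age term called far more genes than were changed in the simulation, so the size of that excess does not carry over to it. Named were all members, Fezf2, and per list the 2 highest and 2 lowest age differences in the control and, for pathway lists, the 1 highest and 1 lowest genotype difference at each age whose bounds were apart; the nearest 3 genes of each fitted member were also named, and examples in the text come from these, exceptions being marked; some genes that the rule names are not reported here. The members, lists and rules were chosen with earlier results of these data known. Of the list genes, 1 matched by an older symbol. Alternatives were the pseudocount, 2 scalings, the midpoint of the bounds, the floor, the fold, the genes fitted and the variance trend.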

Additional observations from a re-analysis of the deposited data

Results flagged for a closer look

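The genotype difference had opposite signs at P7 and P14 for 3 members above 1 FPKM, with 1 library on each side and no test of the change between ages. For Ezh2 it was -0.50 at P7, with bounds apart, and 0.14 at P14, with overlapping bounds. For Dnmt3a it was -0.057 at P7, with overlapping bounds, and 0.11 at P14, with bounds barely apart. For Tet1 it was -0.011 and 0.0029, within the bounds at both ages. Opposite signs were found for 45.2% of 12223 genes.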

How the results depend on the processing

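With a 2-fold rule in place of 1.5-fold, 2 members were called lower and 0 higher at P14 in the control, and likewise 2 and 0 in the KO retina. The shares of all genes called under the alternatives are not given here. The counts in this paragraph therefore describe only how the member calls moved. With median-of-ratios scaling, 2 members (Tet3 and Ezh2) were called lower in the KO retina; that scaling raised the median age difference of all genes by 0.10 in the control, and higher genes made up 55.0% of all age calls there in place of 43.7%. Tet1 was then no longer called in either genotype, nor Tet2 in the KO retina. The median of the demethylation and repair list in the KO retina turned from -0.03 to 0.07. With 0.1 FPKM added, 5 members were called lower with age in the control, Dnmt1 among them. On the scale of a fixed sum per library, Dnmt1 (control) and Uhrf1 (both genotypes) were also called lower with age, and the genotype difference of Tet1 at P14 was -0.03. The other 71 counts of called members stayed within 1.5 times. Each member's age difference kept its sign under each alternative run, and all 7 age calls by limma held, with adjusted p up to 0.0135 (Tet1). Why these values moved was not tested. No paired analysis was possible because each group has 1 library and the labels carry no replicate numbers to use as a block beyond the additive terms; for the same reason no library could be left out. Depth limits Dnmt3b and Uhrf1, whose bounds spanned at least 25.7% of the level on each side.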
